A study of Mus musculus with 9 samples.

Results

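The genes described here are 10 antioxidant genes known as targets of the transcription factor NRF2: Nqo1, Hmox1, Gclc, Gclm, Txnrd1, Srxn1, Slc7a11, Gsr, Osgin1 and Prdx1. They were chosen by name, as the probes whose gene name on the array was one of the 10. All 10 had a probe, 13 of the array's 55681 probes in total, and all 10 passed the filter on dim probes, among 17949 named genes tested. RNA was measured on 9 Agilent Cy3 arrays of mouse peritoneal macrophages from male animals, which flow cytometry had sorted as CD45+ F4/80+ cells. The 3 Ctrl arrays hold macrophages cultured alone in regular medium for 24 h. The 3 T arrays hold macrophages kept for 24 h with CT-26, a colon carcinoma line of the mouse, in the lower chamber of a Transwell, whose porous membrane lets cells migrate between an upper and a lower compartment. The 3 M arrays hold macrophages described as migratory, which came from the upper chamber of such a co-culture with CT-26 (the sources used here state no duration for it). Sample titles set the groups. The cell type label gives the word migratory to the T samples instead, while the titles, descriptions and protocol give it to M.

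NRF2, encoded by Nfe2l2, is held at a low level by KEAP1, which presents it for degradation. Oxidants and electrophiles modify KEAP1, and NRF2 then pairs with small MAF proteins at antioxidant response elements and switches on genes for glutathione synthesis, thiol reduction, quinone detoxification and heme breakdown. BACH1 competes for the same elements and represses part of the set, Hmox1 above all. In macrophages this programme is known for its role in surviving the oxidants the cells make themselves and for restraining inflammatory genes.

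Promoter windows were compared because the members share a regulator by choice and yet did not move alike. RefSeq windows on build GRCm38.p6, running from 250 bases before to 50 bases after a gene's start, were found for 7 members, with 9 windows because Txnrd1 has 3. The letters TGACNNNGC, the core of the antioxidant response element, were searched on both strands, as were the letters TGANTCA of the AP-1 element, which can overlap the core. The core was in 4 of the 9 member windows and in 4071 of all 32851 windows (12.4%). The AP-1 letters were in 3 of the 9 and in 2565 of all (7.81%). The windows shown are those of the 4 members that rose in both co-culture groups and have a window, followed by a pair that did not pass the test against Ctrl although its windows hold the core. Capitals mark every match to either motif.
Srxn1, chr2:152105274-152105573, plus strand: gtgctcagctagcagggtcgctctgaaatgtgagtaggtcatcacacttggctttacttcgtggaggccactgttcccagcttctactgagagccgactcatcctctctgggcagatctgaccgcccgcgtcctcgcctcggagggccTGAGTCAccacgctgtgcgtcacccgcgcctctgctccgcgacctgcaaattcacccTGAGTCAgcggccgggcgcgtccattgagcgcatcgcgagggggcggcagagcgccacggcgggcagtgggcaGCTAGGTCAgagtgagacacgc
Osgin1, chr8:119436897-119437196, plus strand: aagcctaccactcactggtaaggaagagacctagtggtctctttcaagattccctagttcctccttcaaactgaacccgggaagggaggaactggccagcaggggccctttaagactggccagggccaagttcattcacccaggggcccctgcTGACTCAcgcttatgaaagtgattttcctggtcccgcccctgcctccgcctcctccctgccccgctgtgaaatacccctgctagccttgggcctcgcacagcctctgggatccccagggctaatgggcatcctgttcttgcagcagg
Nqo1, chr8:107403156-107403455, minus strand: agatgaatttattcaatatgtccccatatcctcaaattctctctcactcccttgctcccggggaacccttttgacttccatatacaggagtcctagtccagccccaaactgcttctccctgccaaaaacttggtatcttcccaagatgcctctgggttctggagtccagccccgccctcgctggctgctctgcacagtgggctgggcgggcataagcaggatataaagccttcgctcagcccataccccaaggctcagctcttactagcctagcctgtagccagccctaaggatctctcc
Slc7a11, chr3:50443564-50443863, minus strand: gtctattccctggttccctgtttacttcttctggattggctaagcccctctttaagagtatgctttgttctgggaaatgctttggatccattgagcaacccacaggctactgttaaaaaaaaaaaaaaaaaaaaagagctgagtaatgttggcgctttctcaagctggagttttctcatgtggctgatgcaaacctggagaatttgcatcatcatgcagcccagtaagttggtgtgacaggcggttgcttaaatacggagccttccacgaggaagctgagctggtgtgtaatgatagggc
Gclm, chr3:122245307-122245606, plus strand: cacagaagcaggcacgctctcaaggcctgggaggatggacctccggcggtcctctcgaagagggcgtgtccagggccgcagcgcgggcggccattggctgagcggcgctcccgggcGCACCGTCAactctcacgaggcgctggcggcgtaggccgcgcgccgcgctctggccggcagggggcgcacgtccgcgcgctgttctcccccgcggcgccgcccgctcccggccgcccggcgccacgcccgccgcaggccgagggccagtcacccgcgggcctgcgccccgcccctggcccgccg
Prdx1, chr4:116685349-116685648, plus strand: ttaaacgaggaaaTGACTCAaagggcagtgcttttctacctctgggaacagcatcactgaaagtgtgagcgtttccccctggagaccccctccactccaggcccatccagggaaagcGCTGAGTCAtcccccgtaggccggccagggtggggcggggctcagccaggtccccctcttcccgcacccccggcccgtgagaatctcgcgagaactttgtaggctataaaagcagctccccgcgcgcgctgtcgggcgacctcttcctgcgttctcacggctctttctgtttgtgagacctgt

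The Srxn1 window held TGAGTCA at 102 and again at 45 bases before the start, and a core match, GCTAGGTCA as read on the gene's strand, 28 bases after it. Osgin1 held TGACTCA 97 bases before the start and no core. Neither motif was in the windows of Nqo1 or Slc7a11, which says only that these letters are not within them. Gclm held a core match, GCACCGTCA, 134 bases before the start. In Prdx1 the core match GCTGAGTCA, 133 bases before the start, overlapped the AP-1 letters TGAGTCA, and TGACTCA lay 237 bases before it. One of the 3 Txnrd1 windows held a core match, GCTTTGTCA, 92 bases before its start. Windows with the core belong to Srxn1, which rose in both groups, and to Gclm, Prdx1 and Txnrd1, which did not pass the test against Ctrl in either.

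Signals are given as log2 of the processed signal minus the array's 75th percentile, so that 0 is the 75th percentile, and a difference of 1 is a doubling. Differences were tested with limma on all 9 arrays and called at an adjusted p under 0.05 over all 17949 genes. The share of probes well above background ran from 60.5% to 78.7% over the arrays. Ctrl3 correlated with Ctrl1 at 0.969 across probes and with M2 at 0.976, and M1 and M3 had the highest net signal of the negative controls, 62.5 and 49.5, so results are also given without these arrays where a call turns on them. All Ctrl and M arrays were on 1 slide and all T arrays on another, scanned apart, so co-culture in T cannot be told apart from slide in either comparison with T. The labels do not state whether replicate arrays stand for different cultures or mice, so the p-values cover only the spread among these samples, part or all of which may be technical. T and Ctrl differed in 8014 genes, 3163 higher and 4851 lower in T. With quantile normalization that split was 3972 and 3578, and with median scaling 5065 and 2581. M and Ctrl differed in 4230 genes, 2221 higher and 2009 lower, against 2818 and 1430 with quantile normalization and 3041 and 1031 with median scaling. Their number was 8171 without Ctrl3, and 1955, 1948, 2011 and 1849 without Ctrl1, Ctrl2, M1 and M3. M was higher than T in 2648 genes and lower in 1943, or 1570 and 1938 with median scaling, and the total of 4591 became 2896 without T2 and 2857 without T3. The median difference of all genes was -0.14 for T minus Ctrl, -0.09 for M minus Ctrl and 0.11 for M minus T. With median scaling these medians were 0.29, 0.21 and -0.01, and with quantile normalization 0.01, 0.04 and 0.06.

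**Figure D1:**
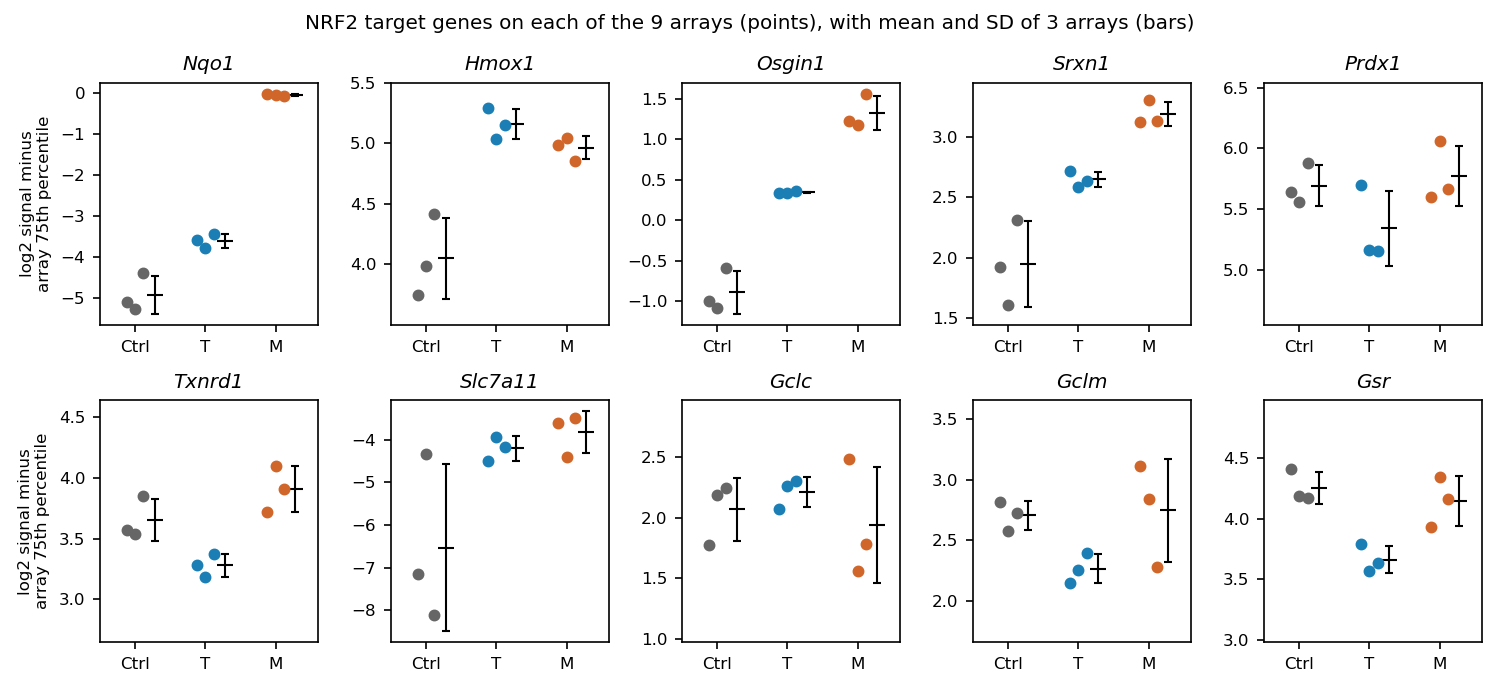
Each panel plots 1 member, with the log2 signal minus the array's 75th percentile on the vertical axis and the groups Ctrl, T and M on the horizontal axis; points are arrays, and bars give the mean and SD of 3 arrays. The panels have different vertical ranges. The Nqo1 arrays of M lie at -0.08 to -0.01, above all T arrays, which lie above all Ctrl arrays, while the arrays of Gclc overlap between every pair of groups.

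The 5 members that rose act on quinones, heme, over-oxidised peroxiredoxins, cystine import and growth, while the subunits of glutathione synthesis, Gclc and Gclm, did not pass the test. Of the 10, 5 rose in T over Ctrl (Nqo1, Hmox1, Srxn1, Slc7a11 and Osgin1), 1 fell (Gsr) and 4 did not pass the test, so that 60% were called, against 44.6% of all genes. The 5 that were higher are 50% of the members, against 17.6% of all genes, and 27% of all genes were lower. Slc7a11 passed the filter on dim probes only through T and M, where it is brighter, so its place in these shares was in part set by the filter. Among the 9 members above background on every array, 4 were higher in each of T and M than in Ctrl. The same 5 rose in M over Ctrl and none fell, 50% against 23.6% of all genes called in either direction, 12.4% higher and 11.2% lower. Of these, Nqo1 and Osgin1 were also higher in M than in T, as was Txnrd1, which makes 3 of 10 members (30%) against 25.6% of all genes called, 14.8% higher and 10.8% lower. T and M were both compared with the same Ctrl arrays, so the same 5 names in both comparisons are not 2 separate results. The members' median difference was 0.42 for T minus Ctrl, 0.58 for M minus Ctrl and 0.48 for M minus T. Arrays did not overlap between T and Ctrl for 7 members, where 53.6% of all genes had no overlap. Between M and Ctrl that held for 4 members, against 36.3% of all genes, and between M and T for 5, against 48.5%. Without T3, 3 members stayed called in T against Ctrl, namely Nqo1, Hmox1 and Osgin1. Without M1 and M3 together, 3 members were called in M against Ctrl.

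**Figure D2:**
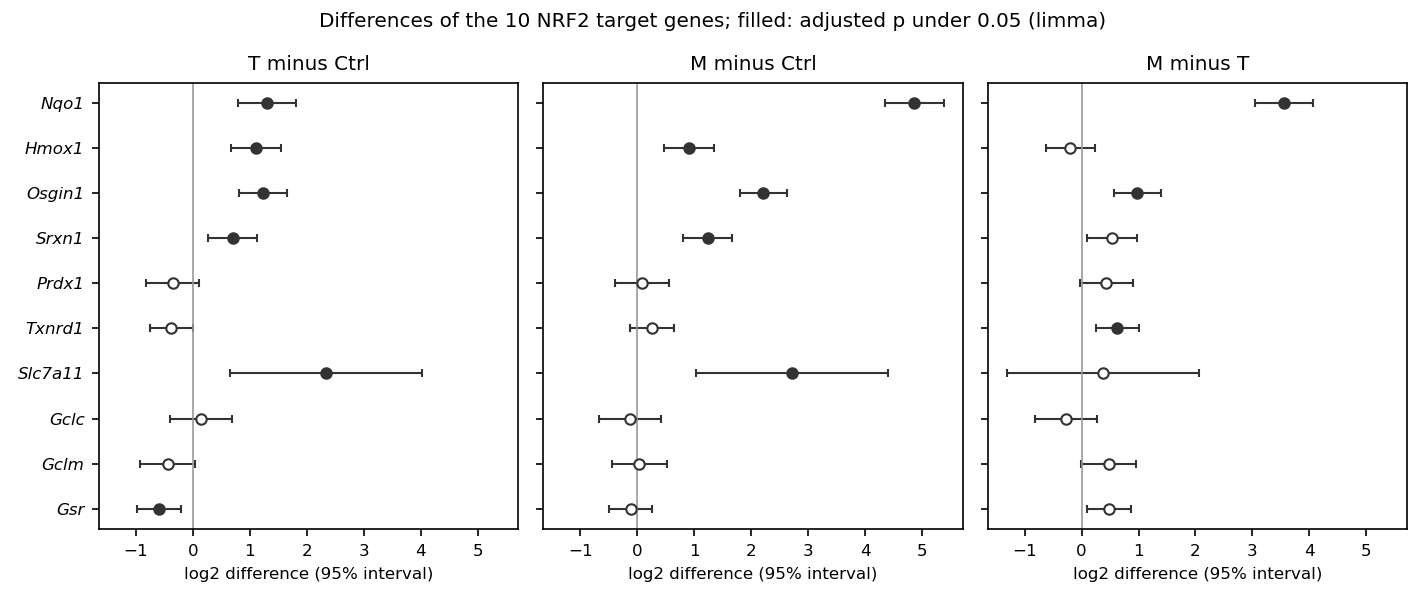
The log2 difference of each member (horizontal axis) is plotted with its 95% interval in 3 panels, T minus Ctrl, then M minus Ctrl, then M minus T; filled points passed an adjusted p of 0.05. Nqo1 stands at 1.31, 4.87 and 3.56 in the 3 panels, and the intervals of Gclc and Prdx1 include 0 in all of them.

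Nqo1 encodes an enzyme that reduces quinones directly to hydroquinones and is a standard readout of NRF2 activity. Its probe lies on chromosome 8 at 109912440 to 109912499 of build mm9. The Ctrl arrays gave -5.10, -5.27 and -4.39, the T arrays -3.60, -3.79 and -3.45, and the M arrays -0.01, -0.06 and -0.08. The lowest T array was above the highest Ctrl array, the M arrays lay far above both, and no 2 groups overlapped. Nqo1 rose by 1.31 ± 0.23 (SE) in T over Ctrl, 2.48-fold (limma, adjusted p = 0.00189, n = 3 per group), and by 4.87 ± 0.23 in M over Ctrl, 29.2-fold (limma, adjusted p = 3.87e-07). M exceeded T by 3.56, an 11.8-fold difference (limma, adjusted p = 4.68e-06). The call was kept in all 3 comparisons under each alternative setting tried, 25 for either comparison with Ctrl and 24 for M against T. Its size in T was 0.92 with normexp background correction, 0.78 against Ctrl3 alone (a lone array assumed to vary like the other groups) and 2.36 with the values of the authors' deposited table. With normexp it was 3.53 for M minus Ctrl and 2.61 for M minus T, and the authors' deposited table gave 2.51 for M minus T. In that table only the T2 column matches no scanner file, and every other column matches one of its own group. In bulk RNA, more cells that express a gene and more RNA of it per cell cannot be told apart.

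Osgin1 encodes an oxidative stress-induced growth inhibitor. Its probe lies on chromosome 8 at 121970077 to 121970136 (mm9). The Ctrl arrays lay at -0.995, -1.09 and -0.59, the T arrays at 0.34, 0.34 and 0.36, and the M arrays at 1.23, 1.18 and 1.56. These groups did not overlap, and the order Ctrl, T, M was the same as for Nqo1. Osgin1 rose by 1.23 ± 0.19 (SE) in T, 2.35-fold (limma, adjusted p = 0.000856), and by 2.21 in M, 4.64-fold (limma, adjusted p = 2.14e-05). M was 0.98 above T (limma, adjusted p = 0.00392), a call lost with the authors' deposited table (limma, adjusted p = 0.0801) and without M1 and M3 together (limma, adjusted p = 0.0824).

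Srxn1 encodes sulfiredoxin, which repairs peroxiredoxins whose active cysteine has been over-oxidised. Its probe lies on chromosome 2 at 151937009 to 151937068 (mm9). It measured 1.92, 1.61 and 2.32 on the Ctrl arrays, 2.72, 2.59 and 2.64 on the T arrays and 3.12, 3.30 and 3.13 on the M arrays. Its arrays, like those of Nqo1 and Osgin1, kept the order Ctrl, T, M with no overlap. How many of all genes show this order was not counted. The rise was 0.70 ± 0.20 (SE) in T, 1.62-fold (limma, adjusted p = 0.0163), and 1.24 in M, 2.36-fold (limma, adjusted p = 0.0018). The call in T was lost without Ctrl2 (limma, adjusted p = 0.0628), without T3 (limma, adjusted p = 0.0532) and against Ctrl3 alone (limma, adjusted p = 0.235). M was 0.54 above T, which did not pass the test (limma, adjusted p = 0.0691), although it did in 8 of 24 settings, among them without Ctrl3 (limma, adjusted p = 0.0203) and with quantile normalization (limma, adjusted p = 0.0239).

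Hmox1 encodes heme oxygenase 1, which breaks heme down to biliverdin, carbon monoxide and iron. Its probe lies on chromosome 8 at 77624207 to 77624266 (mm9). Its values were 3.74, 3.99 and 4.41 on the Ctrl arrays, 5.29, 5.04 and 5.15 on the T arrays and 4.99, 5.04 and 4.86 on the M arrays. T and M overlapped each other, and both lay wholly above Ctrl. Hmox1 rose by 1.11 ± 0.20 (SE) in T, 2.16-fold (limma, adjusted p = 0.00192), and by 0.91 in M, 1.88-fold (limma, adjusted p = 0.0101). The difference between M and T was -0.20, with a 95% interval from -0.63 to 0.24 (limma, adjusted p = 0.504). The gene's other probe gave 0.88 in T and 0.84 in M, both called when every probe was tested on its own (limma, adjusted p = 0.0091 and 0.0284). The call in M was lost without M1 and M3 together (limma, adjusted p = 0.136) and against Ctrl3 alone (limma, adjusted p = 0.178).

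Slc7a11 encodes xCT, the light chain of the cystine and glutamate exchanger that brings in cystine for glutathione. Its probe lies on chromosome 3, between 50169700 and 50169759 (mm9). It was dim, at -7.15, -4.34 and -8.12 on the Ctrl arrays, -4.50, -3.93 and -4.17 on the T arrays and -3.60, -4.40 and -3.48 on the M arrays. Only 1 Ctrl array, Ctrl2, was well above background, and it overlapped both other groups. The SD over the Ctrl arrays was 1.96. The fitted rise was 2.34 ± 0.76 (SE) in T (limma, adjusted p = 0.0301) and 2.71 in M (limma, adjusted p = 0.0308), with most of the Ctrl level resting on signals at background. The call in T was lost without Ctrl1, Ctrl3, T1, T2 or T3 (limma, adjusted p = 0.096, 0.0913, 0.0513, 0.0849 and 0.0723), and the difference was 3.43 without Ctrl2 and 1.55 without Ctrl3. In M it was lost without Ctrl1, Ctrl3, M1 or M3 (limma, adjusted p = 0.106, 0.0542, 0.09 and 0.0997) and the difference was 3.81 without Ctrl2 and 1.92 without Ctrl3. With normexp background correction the rises were 0.93 in T and 1.05 in M, and with array quality weights 1.11 and 1.53, where neither was called. Fitted on slide 1 alone, with Ctrl and M only, the adjusted p of M against Ctrl was 0.0615 (limma). In all, the call was lost in 8 of 24 settings in T and in 9 of 24 in M, with adjusted p up to 0.393 (limma).

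Gclc and Gclm encode the catalytic and modifier subunits of glutamate-cysteine ligase, the rate-limiting enzyme of glutathione synthesis. Neither passed the test in any comparison. Gclc was at 1.77, 2.19 and 2.25 in Ctrl, 2.07, 2.26 and 2.30 in T and 2.48, 1.56 and 1.78 in M, with the lowest and the highest of the 9 arrays both in M. Its difference was 0.14 in T (95% interval -0.41 to 0.69) and -0.13 in M (-0.68 to 0.42), intervals that at this scaling leave out a doubling in either direction. With median scaling the Gclc difference in T was 0.57 ± 0.32 (SE, limma, adjusted p = 0.16), which does not leave out a doubling. Gclm was at 2.82, 2.58 and 2.73 in Ctrl, 2.15, 2.26 and 2.39 in T and 3.12, 2.84 and 2.28 in M. All T arrays lay below all Ctrl arrays, and M spanned both. Its difference from Ctrl was -0.44 in T (limma, adjusted p = 0.126) and 0.04 in M (95% interval -0.44 to 0.53). M minus T was 0.48 (limma, adjusted p = 0.135), and passed the test without M3 (limma, adjusted p = 0.0341) and with normexp background correction (limma, adjusted p = 0.0359).

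Gsr encodes glutathione reductase, which regenerates reduced glutathione from its disulfide with NADPH. It was at 4.41, 4.19 and 4.17 in Ctrl, 3.79, 3.57 and 3.63 in T and 3.93, 4.34 and 4.16 in M. The T arrays lay below all others, and those of M and Ctrl overlapped. Gsr fell by 0.59 on the log2 scale in T (SE 0.17, limma, adjusted p = 0.0185), and was the sole member to fall. The probe used lies on chromosome 8 at 34808413 to 34808472 (mm9). The gene's other probe, at 34808488 to 34808547, read -0.25 and was not called (limma, adjusted p = 0.407 over all probes). The call was also lost with median scaling (-0.17, limma, adjusted p = 0.492), with the authors' deposited table (limma, adjusted p = 0.0826), and without Ctrl1, T2 or T3 (limma, adjusted p = 0.0621, 0.0763 and 0.0691). Averaging both probes (limma, adjusted p = 0.0906) and using Ctrl3 alone (limma, adjusted p = 0.141) ended it too. In M the difference was -0.11 (limma, adjusted p = 0.641), and M minus T was 0.48 (limma, adjusted p = 0.0639), which passed the test in 6 of 24 settings, such as without Ctrl3 (limma, adjusted p = 0.0453).

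Txnrd1, the cytosolic thioredoxin reductase, was at 3.57, 3.54 and 3.85 in Ctrl, 3.29, 3.18 and 3.37 in T and 3.72, 4.10 and 3.91 in M. T lay below both other groups on every array. M was 0.63 above T, 1.55-fold (limma, adjusted p = 0.0229), with differences from Ctrl of -0.37 in T (limma, adjusted p = 0.102) and 0.26 in M (limma, adjusted p = 0.279). Leaving out M2, M3, T1, T2 or T3 ended the call between M and T (limma, adjusted p = 0.0763, 0.065, 0.0561, 0.0947 and 0.0615), and so did leaving out M1 and M3 together (limma, adjusted p = 0.0682), median scaling (limma, adjusted p = 0.148) and the authors' deposited table (limma, adjusted p = 0.334). The lower level in T against Ctrl passed the test with the 75th percentile taken over probes above background on all arrays (limma, adjusted p = 0.0387).

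Prdx1, an abundant peroxiredoxin that removes hydrogen peroxide, was at 5.64, 5.56 and 5.88 in Ctrl, 5.70, 5.16 and 5.16 in T and 5.60, 6.06 and 5.67 in M. Every pair of groups overlapped. The differences were -0.35 in T (limma, adjusted p = 0.196), 0.08 in M (limma, adjusted p = 0.784) and 0.44 between M and T (limma, adjusted p = 0.159). With array quality weights the difference in T passed the test (limma, adjusted p = 0.0374), as did M over T (limma, adjusted p = 0.0166), which also passed with quantile normalization (limma, adjusted p = 0.0408) and with the mean of both probes (limma, adjusted p = 0.031). Its other, dimmer probe read 0.69 between M and T and passed when every probe was tested (limma, adjusted p = 0.0331), so the 2 probes did not give the same call.

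The genes whose profile over the 9 arrays was most like that of a member, by Pearson's r among 17948 other genes, were Ms4a6d (0.998), Hacd4 (0.996) and Slc37a2 (0.996) for Nqo1. For Hmox1 they were Nudt1 (0.992), Prss56 (0.988) and I830077J02Rik (0.986). Slc7a11 was nearest to Rpgrip1l (0.946), Zbtb22 (0.943) and Tnfrsf1b (0.929), and Gclm to Rasal1 (0.933), Atp2c2 (0.909) and Stard8 (0.902). These values describe 9 arrays that fall into 3 groups and share scaling, and carry no test.

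The wider pathway was followed in 76 listed genes, of which 69 were tested. In T, 12 were higher and 4 lower than in Ctrl, 23.2% called, which is below the 44.6% of all genes, with a median difference of -0.09 against -0.14; the share higher was 17.4%, against 17.6% of all genes. In M, 15 were higher and 2 lower than in Ctrl, 24.6% called against 23.6% of all genes. The share higher was 21.7%, against 12.4% of all genes, and the median was -0.01. Between M and T, 12 were higher and 4 lower in M, 23.2% against 25.6% of all genes, with 17.4% higher against 14.8% and a median of 0.14. With median scaling the split in T was 19 higher and 3 lower of 69, where 5065 of all 17949 genes were higher and 2581 lower. The number called in M against Ctrl was 28 without Ctrl3 and 11 without M3.

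The roles that follow are small, and their shares called stand beside 44.6% of all genes in T and 23.6% in M. Among the 9 regulators, 2 rose in T (22.2% called) and 1 in M (11.1%). Nfe2l2 itself did not pass the test in any comparison. It was at 2.03, 2.14 and 2.46 in Ctrl, 1.83, 2.20 and 2.16 in T and 2.45, 2.48 and 2.44 in M, and M and T did not overlap. Keap1 was at 2.93, 2.85 and 3.15 in Ctrl, 2.71, 2.46 and 2.57 in T and 3.03, 3.22 and 3.19 in M. It passed the test between M and T, by 0.57 (limma, adjusted p = 0.0275). In T it read -0.40 against Ctrl, with no overlap of arrays (95% interval -0.76 to -0.04, limma, adjusted p = 0.0702). Bach1, the repressor, was at -2.28, -1.64 and -1.21 in Ctrl, -1.96, -1.54 and -1.59 in T and -0.02, -0.52 and 0.32 in M. All M arrays lay above all others, and Bach1 rose by 1.64 ± 0.30 (SE) in M over Ctrl (limma, adjusted p = 0.00434) and was 1.62 above T (limma, adjusted p = 0.00327). In T its difference was 0.02 (limma, adjusted p = 0.972). Maff, a small MAF partner, was at -0.01, 0.31 and 0.47 in Ctrl, 2.19, 2.07 and 2.12 in T and 0.38, 0.36 and 0.47 in M. The T arrays lay above all others, and those of Ctrl and M overlapped. Maff rose by 1.87 in T (limma, adjusted p = 3.62e-05), and M was at 0.15 over Ctrl (limma, adjusted p = 0.522). Sqstm1, whose p62 protein binds KEAP1, rose by 0.65 in T (limma, adjusted p = 0.0235) and read 0.48 in M (limma, adjusted p = 0.0996).

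**Figure D3:**
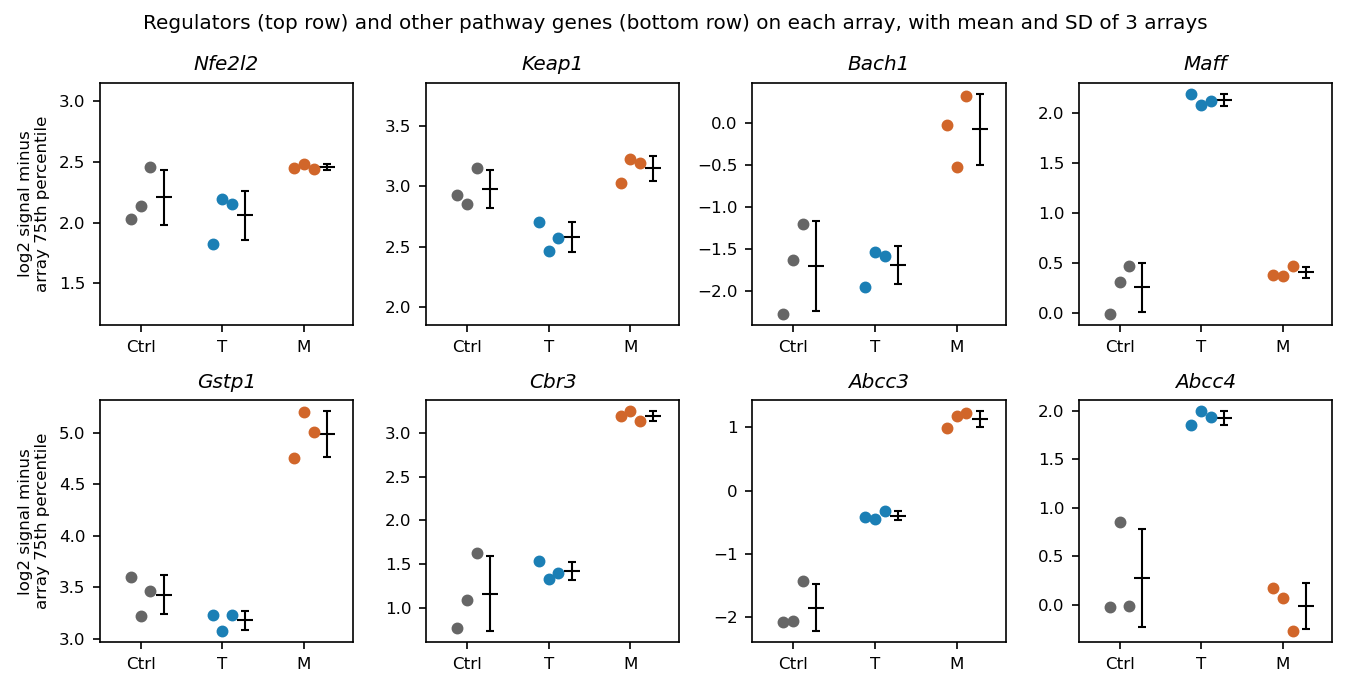
The log2 signal minus the array's 75th percentile (vertical axis) is plotted for 4 regulators (top) and 4 other pathway genes (bottom) in Ctrl, T and M; points are arrays, and bars give the mean and SD of 3 arrays. All M arrays of Bach1, Gstp1 and Cbr3 lie above the other 6 arrays, all T arrays of Maff and Abcc4 do so too, and Abcc3 steps up from Ctrl to T to M.

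In glutathione synthesis and use, 16 of 21 listed genes were tested, of which 4 rose and 2 fell in T (37.5% called, below the 44.6% of all genes) and 5 rose and 1 fell in M (37.5%, against 23.6%). Gstt1, a theta-class glutathione transferase, was at -1.83, -1.69 and -0.96 in Ctrl, 0.84 to 1.09 in T and 1.72, 1.92 and 1.92 in M. No groups overlapped, and it rose by 2.47 in T (limma, adjusted p = 4.09e-05) and by 3.34 in M (limma, adjusted p = 4.53e-06). Gstp1, the pi-class transferase, rose in M, where it read 4.75, 5.20 and 5.01 against 3.60, 3.22 and 3.47 in Ctrl (difference 1.56, limma, adjusted p = 0.000211), and differed by -0.25 in T (limma, adjusted p = 0.28). Gstm5 rose by 1.69 in M. Chac1, which degrades glutathione, rose by 1.10 in T and 0.86 in M, and Ggt5, a gamma-glutamyltransferase, fell by 1.38 and Gsta4 by 1.03 on the log2 scale in T. Ggt5 also fell in M, by 0.86.

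Of 12 tested genes of quinone and aldehyde metabolism and export, 3 rose and 1 fell in T (33.3% called, below the 44.6% of all genes) and 3 rose in M (25%, near the 23.6% of all genes). Abcc3, an export pump for glucuronide and glutathione conjugates, was at -2.08, -2.07 and -1.43 in Ctrl, -0.42, -0.46 and -0.32 in T and 0.99, 1.19 and 1.23 in M. The groups did not overlap, and it rose by 1.46 in T (limma, adjusted p = 0.000509) and by 3.00 in M (limma, adjusted p = 4.13e-06). Cbr3, a carbonyl reductase, was at 3.20, 3.25 and 3.14 in M against 0.77, 1.09 and 1.62 in Ctrl, a rise of 2.04 (limma, adjusted p = 0.000111), and differed by 0.26 in T (limma, adjusted p = 0.353). Abcc4, a pump for cyclic nucleotides and prostaglandins, rose in T by 1.66 (limma, adjusted p = 0.000817) and differed by -0.28 in M (limma, adjusted p = 0.412). Ephx1, a microsomal epoxide hydrolase, rose by 1.40 in T and 1.25 in M, and Aldh3a1, an aldehyde dehydrogenase, fell by 1.64 on the log2 scale in T.

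NADPH, the electron donor of Nqo1, Gsr and Txnrd1, had 6 genes in the list, of which 16.7% were called in T and 33.3% in M. Me1, malic enzyme, rose by 1.55 in M (limma, adjusted p = 0.000227), and Idh1, the cytosolic isocitrate dehydrogenase, by 0.89 in T and 0.96 in M; the other 4 passed in no comparison. Of 11 thiol peroxidase and thioredoxin genes, 1 rose in each group over Ctrl (9.09%, below the share of all genes), Txnrd3, a thioredoxin-glutathione reductase, by 1.03 in T and 1.78 in M, while Glrx, glutaredoxin, was 0.67 lower in M than in T (log2 difference -0.67). Of 8 heme and iron genes none passed in T, and 2 rose in M (25%, near the 23.6% of all genes), Fech, which inserts iron into heme, by 0.80 and the iron exporter Slc40a1 by 0.77. Blvrb, a biliverdin reductase, was 0.84 higher in M than in T. Of 7 other oxidant enzymes tested, 28.6% were called in each of T and M. Cybb, the catalytic subunit of the phagocyte NADPH oxidase, fell by 1.27 on the log2 scale in M (limma, adjusted p = 0.00124). Cat, catalase, fell by 1.13 on the log2 scale in T (limma, adjusted p = 0.0291), although T1 at 5.69 overlapped Ctrl3 at 5.59.

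**Figure D4:**
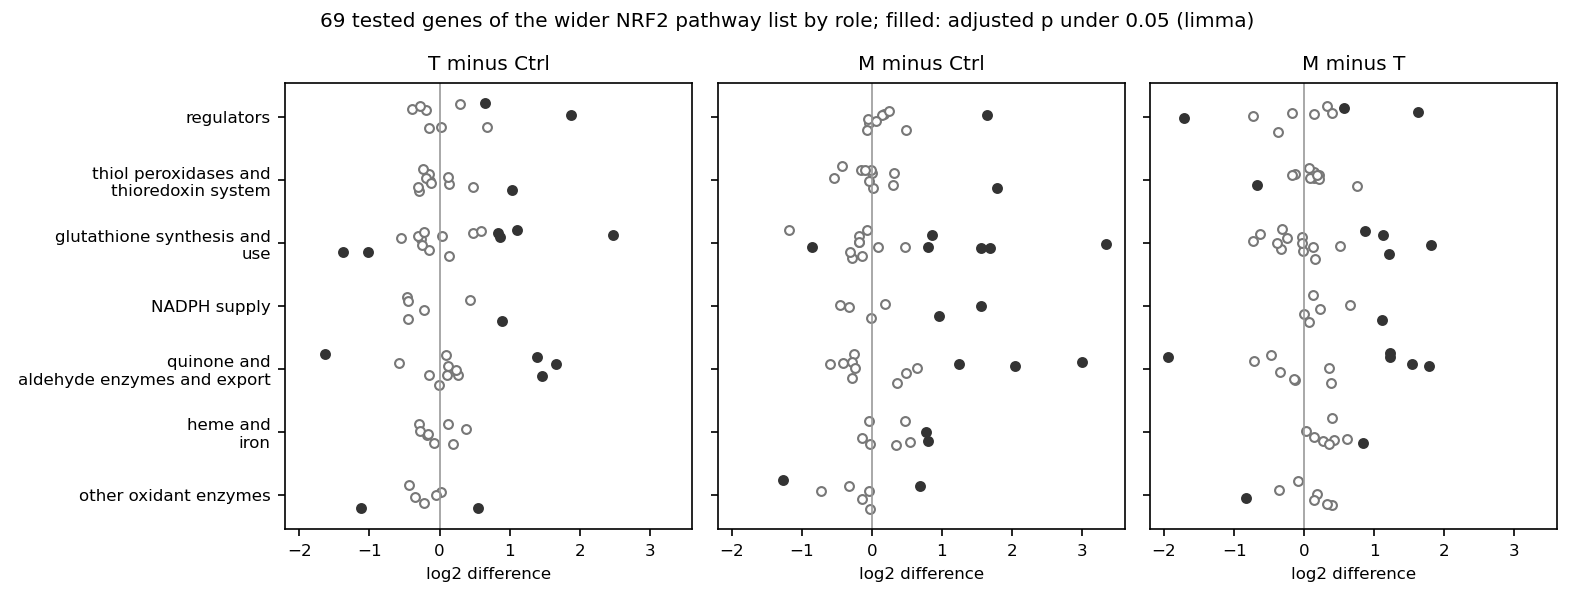
Each point is 1 of the 69 tested pathway genes, placed by its log2 difference (horizontal axis) within its role (rows; vertical scatter within a row has no meaning), in 3 panels, T minus Ctrl, then M minus Ctrl, then M minus T; filled points passed an adjusted p of 0.05. The farthest point to the right is Gstt1 at 2.47 for T minus Ctrl and 3.34 for M minus Ctrl.

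Markers of the sorted cells and of other cells were followed beside the members. All 12 macrophage markers were well above background on every array. In T, 4 were higher than in Ctrl (33.3%, against 17.6% of all genes), and in M 5 were (41.7%, against 12.4%). None was lower in either. Mertk rose most in T, by 2.74 (limma, adjusted p = 8.6e-06). Its log2 difference for M minus T was -2.26 (limma, adjusted p = 2.88e-05). Ptprc, which encodes CD45, and Adgre1, which encodes F4/80, differed by 0.02 and 0.10 in T, and in M they rose by 0.80 (limma, adjusted p = 0.0216) and 2.86 (limma, adjusted p = 1.26e-05). Of 13 tested markers of carcinoma epithelium, 3 were higher in T than in Ctrl, 5 were lower, and none was higher and 1 lower in M. These are 23.1% higher and 38.5% lower in T, against 17.6% and 27% of all genes, and 7.69% called in M, against 23.6%. Their summed level on the log2 scale was 2.41 to 2.87 in Ctrl, 2.22 to 2.34 in T and 2.14 to 2.44 in M. The brightest markers weigh most in such a sum, and Krt19 in T, at a mean of -1.02, adds little to it. Cdx2 stayed near background on all 9 arrays, as did Cdh1 on those of T and M. Krt19 rose by 3.63 in T (limma, adjusted p = 1.04e-05), while Ocln fell by 1.68 on the log2 scale (limma, adjusted p = 0.00144). Of 7 tested granulocyte markers 1 rose and 3 fell in T (57.1% called, against 44.6% of all genes) and 2 rose in M (28.6%, against 23.6%), where S100a8, which macrophages can also express, was 4.97 over Ctrl (limma, adjusted p = 2.64e-07). Their summed level was -0.96 to -0.02 in Ctrl, -0.18 to 0.16 in T and 1.43 to 1.45 in M, and Ly6g and Ltf stayed near background on all Ctrl and M arrays. S100a8 alone read 1.15, 1.09 and 1.18 in M, so the sum there is mostly this gene and does not describe the whole list. Elane, by contrast, fell by 2.56 on the log2 scale in T (limma, adjusted p = 0.00508). Of the tested markers of T and NK cells, B cells, mast cells, mesothelium and fibroblasts, and red cell precursors, 7, 3, 2, 4 and 1 in number, 1 was higher and 8 were lower in T. In the same order, 57.1%, 33.3%, 100%, 25% and 0% of them were lower in T, against 27% of all genes. In M, 2 were higher and 1 was lower than in Ctrl, and 1 of the 2, Cd3d, stayed near background on all arrays of both groups. The shares called in M, in that order, were 14.3%, 0%, 50%, 0% and 100%, against 23.6% of all genes. The part of other cells in the members' differences was not tested.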

How the data were processed

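The submitters' processing notes name Agilent Feature Extraction, version 10.7.3.1, as the authors' tool. The deposited scanner files give a background-subtracted processed signal intensity per spot with no scaling across arrays, per the file headers, and probe positions on build mm9. The authors' deposited value table, used as an alternative, holds 4 columns on the linear intensity scale and 5 on the log2 scale (75th percentile at 0), with medians of 215, 195, 246 and 219 for Ctrl1, M1, M2 and M3 and -3.39, -3.71, -3.76, -3.93 and -4.03 for Ctrl2, Ctrl3, T1, T2 and T3. Its M1 and M2 columns match each other's scanner file and its T2 column matches none, so the scale and centring of that column were inferred from its values alone. No column is a ratio, so direction is not in doubt.

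Control spots and spots marked as outliers (147 to 299 per array) were left out, spots of a probe were averaged, log2 values were formed, and each was set relative to its array's 75th percentile. Of 55681 probes, 26762 were named through RefSeq accessions and 5329 by the array's name. Testing required a probe to be well above background throughout at least 1 group, and the brightest probe stood for its gene. Group means of all 9 arrays were fitted with limma 3.58.1 in R 4.3.3 (lmFit, eBayes), with Benjamini-Hochberg adjustment over 17949 genes at 0.05. The SE pools all 9 arrays. The number of arrays limits the precision. On simulated data for T minus Ctrl over 17949 genes, 83% of genes changed by 2 log2 units and 35% of those changed by 1 were recovered, and 5.6% of 125 calls were false. The simulation changed few genes and drew independent errors, while the measured arrays gave 8014 calls. Its recovery and its false share therefore do not carry over to the comparisons reported here.

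The text names all 10 members, up to 3 called genes with the largest difference per pathway role and comparison, Nfe2l2, Keap1 and Bach1, Ptprc and Adgre1, and up to 2 called markers per cell type. Cdx2, Cdh1, Ly6g, Ltf and Cd3d lie outside the rule or were singled out once their values had been seen. The members and lists were chosen with earlier results of these data known. Deviations from the group means of same-numbered Ctrl and T arrays correlated at 0.55, 0.12 and 0.38. Those of differently numbered Ctrl and T arrays ran from -0.45 to 0.19, so Ctrl2 with T2 did not stand out. The values were -0.27, -0.19 and 0.02 for same-numbered Ctrl and M arrays, and -0.28, -0.15 and 0.03 for T and M arrays. Among differently numbered arrays they reached 0.35 for Ctrl1 with M2. Whether same numbers mark pairs is therefore not settled, and no label says what the number stands for. Alternatives covered scaling, background correction, filter, probe choice, fit, slide, replicate number and arrays left out.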

Additional observations from a re-analysis of the deposited data

How the results depend on the processing

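Of the 30 member differences, 17 kept their side of the threshold under every alternative, and the other 13 changed side under at least 1. Of the 17, 11 also kept their direction. In all, 8 differences changed sign under some alternative, none of them called at the setting reported or at the one where the sign turned. Leaving out 1 array at a time gave 3 to 6 members called in T against Ctrl, 4 to 5 in M against Ctrl and 2 to 5 in M against T. Over all genes the ranges were 5378 to 10334, 1849 to 8171 and 2857 to 6154, and in the pathway list 12 to 22, 11 to 28 and 11 to 19. Members called in M against T numbered 6 with quantile normalization, 6 with normexp background correction, 6 with array quality weights, 5 with the 75th percentile taken over probes above background on all arrays, 5 with an intensity trend and robust spread, 1 with the authors' deposited table and 1 without M1 and M3 together. All genes called in M against T also rose in number, from 4591 of 17949 to 4986 with quantile normalization and 8268 with array quality weights. With the 75th percentile taken over probes above background on all arrays they numbered 5063. For normexp background correction and for the intensity trend with robust spread, no count of all genes is given beside the member count. Those 2 member counts therefore cannot be set against a general rise in calls. Where 2 arrays of a group were left out, the lone array is assumed to vary like the other groups. Without M1 and M3 together, M against Ctrl gave 3 members, 8 pathway genes and 898 genes, and M against T 2366 genes. Without Ctrl1 and Ctrl2 together, T against Ctrl gave 7 pathway genes and 3258 genes, and M against Ctrl 8 and 1258. With array quality weights the pathway counts were 30, 31 and 29 in T against Ctrl, M against Ctrl and M against T, and 8372 and 8268 genes differed in M against Ctrl and M against T. The authors' deposited table, in which only the T2 column matches no scanner file, gave 2049 genes in M against Ctrl. In M against T it gave 1380 genes and 7 pathway genes. With no filter 7071 genes differed between M and T. With Ctrl and M alone, which is also the fit within slide 1, 2262 genes differed. The cause of these changes was not tested.

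With the replicate number as a block over all 9 arrays, 6, 5 and 3 members were called in T against Ctrl, M against Ctrl and M against T, and 7724, 4446 and 4193 genes. A block over the Ctrl and T arrays alone, added after the data were seen, gave 6 members, 20 pathway genes and 9139 genes. Neither block changed the call of a member. Low signal limits Slc7a11, which could not be tested where every array had to be above background, and 3 arrays a group limit all values.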
